A study of Mus musculus with 8 samples.

Results

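The periportal hepatocyte nuclei of these mouse livers were taken as the barcodes of a single-nucleus RNA library that carried RNA of periportal marker genes and none of pericentral marker genes. A barcode was a member if it had at least 300 detected genes, at least 3 unique molecular identifiers (UMIs, each counting 1 captured RNA molecule) over the 5 periportal markers Hal, Sds, Gls2, Cyp2f2 and Etnppl, and 0 UMIs over the pericentral genes Glul and Slc1a2. It could also hold at most 1 UMI over Ptprc, Stab2, Ptprb, Reln and Pkhd1, genes of leukocytes, endothelial cells, stellate cells and cholangiocytes. The rule gave 5661 members of 59446 barcodes with at least 300 genes in 7 mice, out of 80575 barcodes of 8 mice in the series. The library of the first RD tumour mouse held exactly 20000 barcodes and was not used here, although 536 of its barcodes met the rule. All differences in the 12 genes of the rule are descriptions of how members were chosen.

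The livers came from male mice of the 129A1/SvIm and C57BL/6J cross (DIAMOND mice). Every mouse had first received a Western diet high in fat, with fructose and glucose in the drinking water, which all groups therefore share. The WD tumour group (3 mice) stayed on that diet for 48 weeks and developed hepatocellular carcinoma. The RD no tumour group (3 mice) was returned to chow after 36 weeks, and no carcinoma was detected. The RD tumour group had the same reversal but developed carcinoma, and its only mouse used here (replicate 2) is given as a value without a test. Per the labels the animals were 48 weeks old at the end, whereas the series text counts 48 weeks of diet from a later start than birth, so age and time on diet disagree. Each library is 1 mouse, and the labels do not say whether the sampled tissue contained tumour. Between the WD tumour and RD no tumour mice, diet and tumour cannot be told apart, and no group was fed chow throughout.

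Hepatocytes are arranged along the liver lobule between the portal tract, where blood enters rich in oxygen and nutrients, and the central vein, where it leaves. Periportal hepatocytes are known for gluconeogenesis, for the urea cycle and for breaking down amino acids such as histidine, serine and glutamine, whereas pericentral hepatocytes, under Wnt signalling from the central vein, make glutamine and carry much of the bile acid synthesis and cytochrome P450 activity. Of the markers used, Hal (histidine ammonia-lyase) opens histidine breakdown, Sds (serine dehydratase) turns serine into pyruvate, Gls2 is the liver glutaminase, Cyp2f2 is a cytochrome P450, and Etnppl breaks down phosphoethanolamine.

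The 7 libraries held 17948627 to 32537971 UMIs each, and the median nucleus with at least 300 genes held 1120.0 to 2656 UMIs. Members were deeper, with a median of 2811 to 4862 UMIs. The median mitochondrial share of their UMIs was 0.582, 1.72 and 0.775% in RD no tumour livers. It was 2.62, 1.03 and 2.79% in WD tumour livers and 0.942% in the RD tumour liver. In all nuclei with at least 300 genes it was 1.296, 3.28 and 1.46% in RD no tumour livers. There it was 7.91, 2.77 and 7.51% in WD tumour livers and 2.32% in the RD tumour liver. In both sets WD tumour 1 and WD tumour 3 lay above every RD no tumour mouse, and WD tumour 2 lay within their range. The members of 1 mouse were summed. The level of a single gene in periportal or pericentral nuclei is in CPM, its count per 1000000 UMIs of that sum after the sum was multiplied by edgeR's TMM factor, which evens out composition between libraries (0.921 to 1.08 for periportal and 0.944 to 1.07 for pericentral sums, set separately). Levels summed over a marker list, levels in nuclei of other cell types and levels in subsets of members are CPM of the plain sum, without that factor. In 6 mice 1 UMI of the sum was worth 0.181 to 0.757 CPM. In WD tumour 2, which had only 61 members, 1 UMI was 2.96 CPM, and a count of 0 there allows up to 8.88 CPM of a single gene on the TMM scale (3 UMIs, counting error only). Pairs of libraries shared 8 to 39 cell barcodes over 21 pairs. RD no tumour 1 and WD tumour 2 deviated together from their group means (r = 0.384 over genes), although nothing in the labels links them, and counts of calls are therefore also given without both. For the other pairs of a WD tumour and an RD no tumour mouse, r ran from -0.315 to 0.284. Where per-mouse values are listed, they follow replicates 1, 2 and 3.

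Members carried a median of 6.0 to 11 marker UMIs. Nuclei with exactly 3 marker UMIs made up 11.4 to 23% of the members, and 56.6 to 82.7% had RNA of at least 3 of the 5 markers. Sds was detected in 79.9 to 90.4% of members and Gls2 in 53.7 to 80.3%. Hal was detected in 73.3, 78.6 and 79.6% in RD no tumour livers, 55.8, 65.6 and 65.3% in WD tumour livers and 79.7% in the RD tumour liver. Etnppl varied more between mice of 1 group than between groups, at 18.6, 332 and 65 CPM in RD no tumour livers, 112, 109 and 75.8 CPM in WD tumour livers and 264 CPM in the RD tumour liver. Cyp2f2 likewise ranged from 94.7 to 443 CPM. Of the marker UMIs, Hal contributed 28.4, 25.1 and 27.9% in RD no tumour livers, 15.5, 19.1 and 13.8% in WD tumour livers and 34.6% in the RD tumour liver. Sds contributed 46.3, 38.8 and 39.7% in RD no tumour livers, 54, 49 and 61.4% in WD tumour livers and 29% in the RD tumour liver. The mix of markers that admitted a nucleus therefore differed between groups, with less Hal and more Sds in the WD tumour mice. The level of Hal was 476, 652 and 639 CPM in RD no tumour livers, 340.0, 317 and 404 CPM in WD tumour livers and 877 CPM in the RD tumour liver. That of Sds was 777, 1008 and 910.3 CPM in RD no tumour livers, 1189, 811 and 1802 CPM in WD tumour livers and 736 CPM in the RD tumour liver, so the RD tumour mouse had the most Hal.

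At the threshold, nuclei just inside the rule had a higher median depth than those just outside it in every mouse. They had less Cyp2e1 in every mouse but WD tumour 3 (2113 against 2021 CPM). Only the ranges over mice overlapped. Those with exactly 3 marker UMIs held a median of 1334 to 4644 UMIs in all, and Cyp2e1, a pericentral cytochrome P450, stood at 447 to 2442 CPM in their sums. Just outside, nuclei with 2 marker UMIs held 907 to 4396 UMIs and 498 to 3282 CPM of Cyp2e1. Among all members 75.3 to 97.5% had a Cyp2e1 UMI. Nuclei of other cell types, taken as those with at least 5 UMIs over the 5 genes of other cells, also reached 3 marker UMIs in 7.77, 15 and 27.2% in RD no tumour livers, 14.1, 2.56 and 15.6% in WD tumour livers and 37.7% in the RD tumour liver, at a median of 1917 to 3487 UMIs. Their summed marker level was 221, 688 and 865 CPM in RD no tumour livers, 434, 71.8 and 669 CPM in WD tumour livers and 1378 CPM in the RD tumour liver. In members it was 1648, 2501 and 2110.2 CPM in RD no tumour livers, 2196, 1781 and 2996 CPM in WD tumour livers and 2656 CPM in the RD tumour liver, above the other nuclei in every mouse. A nucleus near the threshold can reach it through such background RNA, whose part in the results below was not tested.

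Of genes that the rule did not use, the enzymes that follow Hal in histidine breakdown were among those that set periportal apart from pericentral nuclei. Pericentral nuclei were defined by similar criteria in the same libraries (at least 3 UMIs over Glul and Slc1a2, at most 2 over the periportal markers), and 2498 were found. The limit on markers of the opposite zone was looser for them than for members, which had 0. Differences between the zones are in log2(CPM + 1) within each mouse, with 1 set of TMM factors over both zones, and are given without a test, since both sets were chosen from these counts. Uroc1 (urocanate hydratase, the step after Hal) was higher in periportal nuclei by 2.58 to 4.37 over the 7 mice, Amdhd1 (imidazolonepropionase) by 2.32 to 5.41, and Ftcd, which passes the last one-carbon unit of histidine to folate, by 1.79 to 3.79. Every mouse had all 3 enzymes above its pericentral level. Sdsl, a relative of Sds, was higher by 2.28 to 5.08. Gldc, the glycine decarboxylase, was higher by 3.96 to 5.17, with means of 357 CPM in periportal and 15.5 CPM in pericentral nuclei. The remaining named members of this list differed little, Shmt1 by 0.04 to 0.75 and Agxt by 0.20 to 1.24.

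The promoters of Hal and of the 3 enzymes after it are shown because these 4 genes carry histidine breakdown from its first step to folate and were all higher in periportal nuclei, Hal by construction. Each is the 250 bases before the RefSeq start on GRCm38.p6, 5′ to 3′ on the gene's own strand. Capitals mark matches on either strand to TATAAA (the TATA box), TTGCNNAA (a C/EBP-type motif), TTCNNNGAA (STAT type) or CTTTGAT (TCF type), none of which overlapped here.
Hal, chr10:93488518-93488767, plus strand: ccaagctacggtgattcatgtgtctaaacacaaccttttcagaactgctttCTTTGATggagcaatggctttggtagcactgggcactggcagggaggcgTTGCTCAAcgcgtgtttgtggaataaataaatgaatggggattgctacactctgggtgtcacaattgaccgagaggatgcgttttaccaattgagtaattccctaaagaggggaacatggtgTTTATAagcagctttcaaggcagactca
Uroc1, chr6:90333039-90333288, plus strand: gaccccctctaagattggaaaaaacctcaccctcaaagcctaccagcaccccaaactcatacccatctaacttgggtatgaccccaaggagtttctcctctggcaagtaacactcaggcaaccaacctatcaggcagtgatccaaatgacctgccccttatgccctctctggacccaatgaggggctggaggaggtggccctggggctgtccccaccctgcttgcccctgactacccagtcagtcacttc
Amdhd1, chr10:93540034-93540283, minus strand: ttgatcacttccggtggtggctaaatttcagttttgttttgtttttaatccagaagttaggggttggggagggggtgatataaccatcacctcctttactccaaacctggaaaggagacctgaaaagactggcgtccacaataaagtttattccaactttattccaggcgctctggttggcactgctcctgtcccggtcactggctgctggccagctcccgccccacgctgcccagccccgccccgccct
Ftcd, chr10:76575398-76575647, plus strand: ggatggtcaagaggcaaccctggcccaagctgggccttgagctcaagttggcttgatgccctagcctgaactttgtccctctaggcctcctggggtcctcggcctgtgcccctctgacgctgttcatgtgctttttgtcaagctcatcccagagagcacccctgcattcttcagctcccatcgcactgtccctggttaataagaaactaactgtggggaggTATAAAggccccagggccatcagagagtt
The Hal window held a match each to the TATA, C/EBP and TCF letters, Ftcd held a TATA match, and these letters were not in the Uroc1 and Amdhd1 windows. Over 32851 promoter windows of the same length, TATAAA was present in 12.4%, TTGCNNAA in 9.56%, TTCNNNGAA in 7.02% and CTTTGAT in 3.21%. A match is a description of letters and not a bound site. On chromosome 10 Hal (chr10:93488768-93519304, plus strand) and Amdhd1 (chr10:93523338-93540033, minus strand) are neighbours whose 3′ ends face each other, 4.034 kb apart. On chromosome 5 Sds and Sdsl lie 3.716 kb apart, also on opposite strands.

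Among the other genes, 7400 reached 20 CPM on average in the higher zone. Of these 788 (10.6%) were higher in periportal nuclei in all 7 mice and 605 (8.18%) were lower, and the median of their mean differences was 0.02. Of the histidine, serine and glycine list, 7 of 10 measured genes were higher in all 7 mice and 0 lower (median 1.73). Over 12 genes of that list, the medians within single mice were smaller, at 0.42 to 0.87. In the urea cycle list 7 of 13 were higher and 2 lower in all 7 mice (median 0.46). Cps1, the entry enzyme of the cycle, was higher by 0.55 to 3.56, Otc by 1.04 to 2.92, Ass1 by 0.59 to 2.98, Asl by 0.87 to 2.74 and Arg1, which releases urea, by 1.78 to 3.34. All 5 enzymes of the cycle proper thus lay on the periportal side in every mouse. Nags, whose product activates Cps1, went the other way at -1.27 to -0.22, as did the glycerol and urea channel Aqp9 at -1.38 to -0.76. The mitochondrial ornithine carrier Slc25a15 differed by only 0.15 to 0.61.

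A list of other periportal genes, compiled with earlier results of these data known, had 16 of 19 genes higher in all 7 mice and 0 lower (median 1.85). The lipid droplet enzyme Hsd17b13 was higher by 2.5 to 4.56 and the steroid dehydrogenase Hsd17b6 by 1.61 to 4.84. Pck1, the entry enzyme of gluconeogenesis, differed less, by 0.56 to 1.44. Cdh1, the epithelial cadherin, had the widest spread of the genes named from this list, 0.44 to 6.50. Albumin (Alb) was nearly even between the zones, at 0.01 to 0.66. Of a list of other pericentral genes, 23 of 24 were lower in periportal nuclei of all 7 mice (median -1.82). Wnt target and regulator genes were the most depleted of those named, with Lgr5 at -8.60 to -4.15, Axin2 at -5.85 to -2.06 and Tbx3 at -4.10 to -2.33. Cyp2e1 differed by -1.94 to -0.90, Cyp1a2 by -4.04 to -1.11 and Oat, which turns ornithine into glutamate, by -3.67 to -0.56. Both lists and both sets of nuclei were chosen to differ by zone, so these sides describe the label and do not test it.

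Glucose and lipid pathways were split between the zones. In the gluconeogenesis list 6 of 17 were higher and 1 lower in all 7 mice. G6pc, which frees glucose from its phosphate, was higher by 0.13 to 1.34 and Fbp1 by 0.58 to 1.19, whereas Igfbp1, an insulin-repressed secreted protein, was at -1.94 to -0.46. In the sterol list 7 of 19 were higher and 0 lower, with Lss, which closes the sterol rings, higher by 0.52 to 2.15. In the lipogenesis list 4 of 18 were higher and 0 lower. Acly, which makes cytosolic acetyl-CoA, was higher by 1.15 to 2.03, Acaca, the acetyl-CoA carboxylase, by 0.54 to 1.73, and Srebf1, the transcription factor that drives these genes, by 0.21 to 1.43. In the bile acid list 1 of 18 were higher and 7 lower. Cyp7a1, the rate-limiting enzyme of bile acid synthesis, was at -3.02 to -1.41 and Cyp7b1, of the alternative route, at -2.07 to -0.33, so both routes lay on the pericentral side in every mouse. The one gene on the periportal side, Baat, which joins bile acids to taurine or glycine, differed by 0.22 to 0.49. In the list of other amino acid breakdown 8 of 24 were higher and 2 lower.

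The genes with the largest mean difference in the periportal direction included several outside these pathways. Aspg, an asparaginase, was higher by 3.47 to 5.32 and Sfxn1, the mitochondrial serine carrier, by 2.77 to 4.70. Bmper, a secreted modulator of BMP signalling, was higher by 3.13 to 6.25 and averaged 262 CPM in periportal and 20.4 CPM in pericentral nuclei. The adhesion molecule Ncam2 (2.54 to 4.97), the semaphorin receptor Plxna2 (2.63 to 4.77) and the lens crystallin relative Cryl1 (2.92 to 6.58) were also higher in all 7 mice. In the other direction stood Lgr5, with 5.65 CPM in periportal and 292 CPM in pericentral nuclei. Lhpp, a phosphatase, was at -6.68 to -3.67, Rcan2, an inhibitor of calcineurin, at -7.40 to -3.43, and the nuclear receptor Esrrg at -6.02 to -2.70. The number of pericentral nuclei per mouse ran from 163 to 677, so low genes carry wide counting error.

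**Figure D1:**
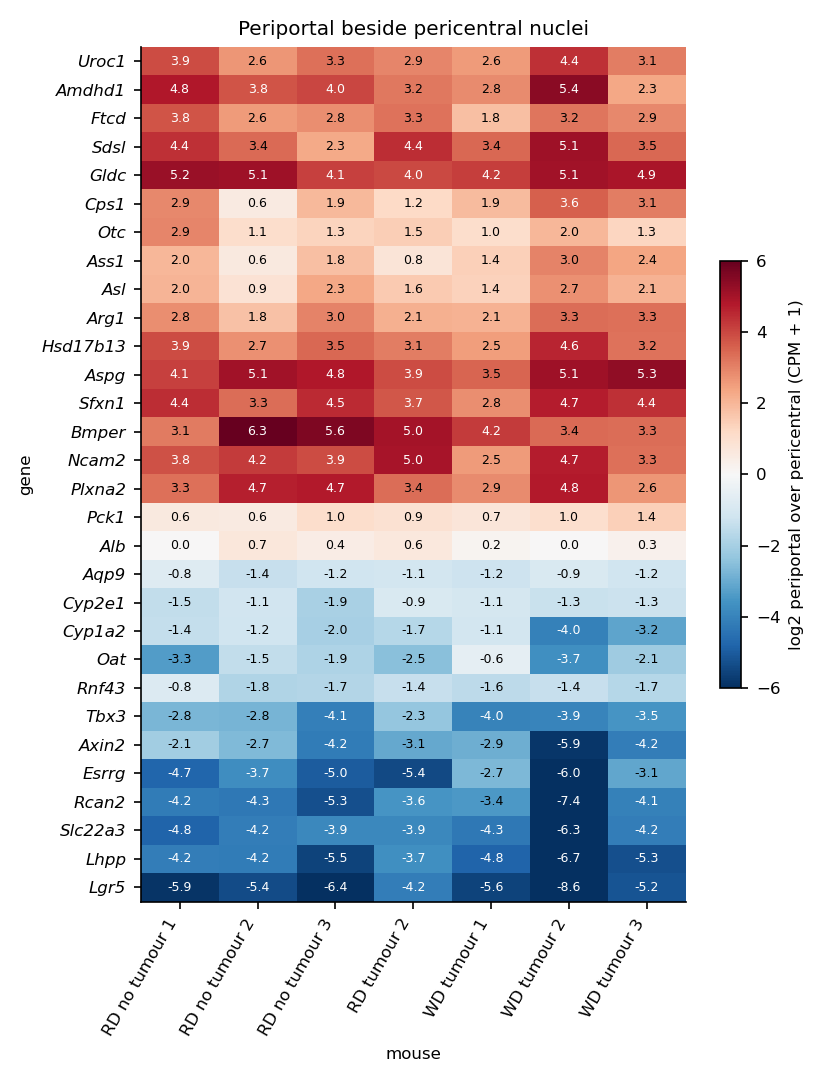
Each cell is the log2 ratio of CPM + 1 in periportal over pericentral nuclei for 1 gene (row) in 1 mouse (column), printed in the cell and coloured from blue (lower in periportal) to red (higher). Histidine, serine, glycine and urea cycle enzymes are red in all 7 mice, Alb is near 0, and Lgr5 is the deepest blue at -8.60 to -4.15.

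Within the members, several genes outside the rule varied with how strongly a nucleus carried the markers. Members of each mouse were ranked by the marker share of their UMIs and cut into 3 equal parts, and the top part was set beside the bottom part, again as a description. Ftcd was higher in the top part by 0.27 to 1.07, Gldc by 0.18 to 1.88, Amdhd1 by 0.27 to 1.72 and Hsd17b13 by 0.52 to 1.34 (log2, in all 7 mice each). Ass1, of the urea cycle, differed by 0.06 to 0.70 and was higher in 7 mice, while Cps1 ranged over -0.30 to 0.75 and was higher in 5. Pericentral genes were lower in the top part, with Cyp27a1, the sterol 27-hydroxylase, at -1.06 to -0.32, the dioxin receptor Ahr at -1.48 to -0.55 and Cyp7b1 at -1.36 to -0.34, each lower in 7 of 7 mice. Cyp2e1 was lower in 6 of 7 mice (-0.86 to 0.17). Pparg (-2.46 to -0.22) and Aldh3a2 (-1.74 to -0.32), taken up below, were also lower in 7 of 7. Slco1a1 showed no common direction, at -0.38 to 0.35. The parts also differed in depth, with a median of 2046 to 4726 UMIs in the top and 3731 to 5271 in the bottom part, and the role of depth was not tested.

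The periportal share of nuclei was lower on average in WD tumour livers than in tumour-free ones, but the groups overlapped and the test did not pass. Of the nuclei with at least 300 genes, members made up 7.74, 15.5 and 15.2% in RD no tumour livers, 4.91, 0.863 and 8.52% in WD tumour livers and 11.8% in the RD tumour liver. The lowest was WD tumour 2, with a Wilson 95% interval of 0.673 to 1.11%, while WD tumour 3 lay above RD no tumour 1. The means were 4.76 ± 3.83% for WD tumour mice against 12.8 ± 4.40% for tumour-free mice (SD, n = 3 each). The mean log2 share differed by -1.89, and was lower in the WD tumour mice (exact two-sided permutation test, p = 0.2), and 3 against 3 mice cannot give a p below 0.1.

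Among hepatocyte nuclei alone (at least 5 UMIs over a hepatocyte panel, or meeting either zone's rule), members were 14.2, 24.9 and 22.8% in RD no tumour livers, 7.39, 1.59 and 12.7% in WD tumour livers and 17.7% in the RD tumour liver. Here every WD tumour mouse lay below every RD no tumour mouse (difference -1.92 in log2, exact permutation p = 0.1, the smallest possible). After each nucleus was thinned to 1000 UMIs, the shares of all nuclei were 3.0, 12.7 and 10.9% in RD no tumour livers, 5.14, 0.517 and 10.4% in WD tumour livers and 14% in the RD tumour liver, with 417 to 4632 nuclei per mouse left out as too shallow. Thinned shares of hepatocyte nuclei were 4.29, 17.0 and 13.9% in RD no tumour livers, 7.11, 0.786 and 14.0% in WD tumour livers and 19.2% in the RD tumour liver. There the groups overlapped, with WD tumour 1 and WD tumour 3 above RD no tumour 1. For the share of all nuclei, the thinned difference was -1.30 (exact permutation p = 0.5). It was -1.12 (p = 0.6, exact permutation) with nuclei of at most 5% mitochondrial UMIs. Leaving out WD tumour 2 gave -0.92, and leaving out WD tumour 3 gave -2.57 (exact permutation p = 0.3 and 0.1). Members per pericentral nucleus numbered 2.45, 2.43 and 2.32 in RD no tumour livers, 1.21, 0.374 and 2.86 in WD tumour livers and 2.9 in the RD tumour liver, and WD tumour 3 did not differ from the reversed mice in this ratio beyond their range of 2.32 to 2.90. A smaller share of nuclei of this kind and less marker RNA per nucleus cannot be told apart, since both move a nucleus across the 3-UMI threshold.

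**Figure D2:**
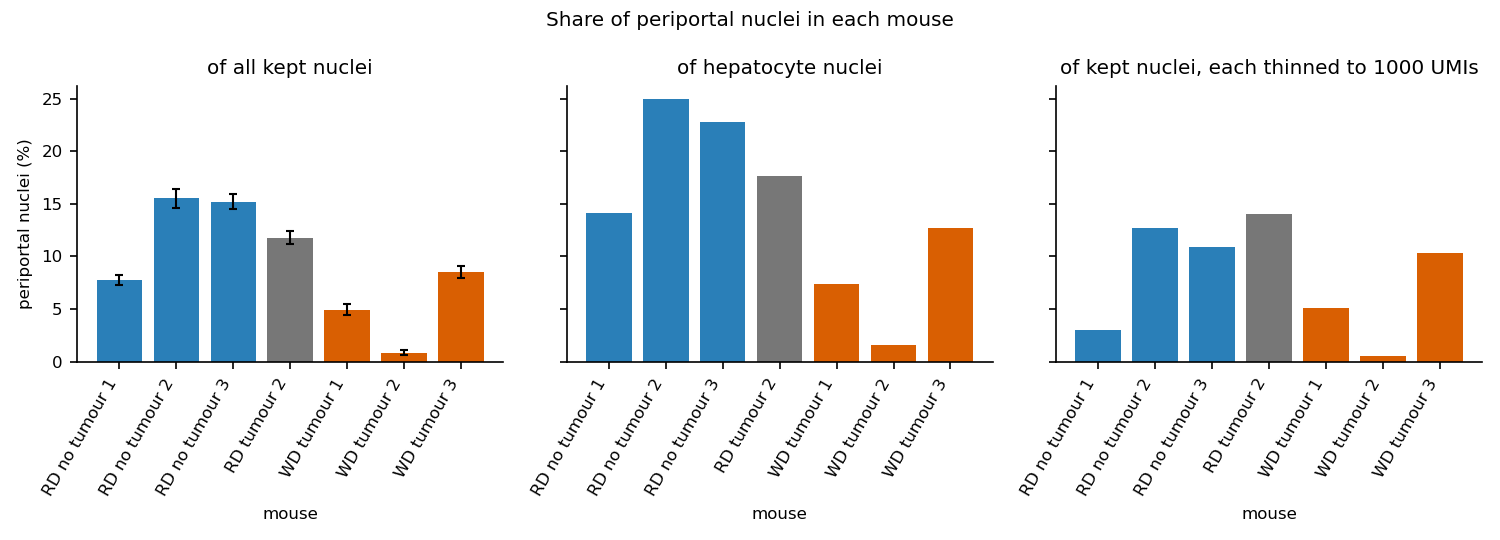
Bars give the percentage of nuclei in each mouse that met the periportal rule, of all nuclei with at least 300 genes (left, with Wilson 95% intervals for counting error), of hepatocyte nuclei (middle) and after thinning each nucleus to 1000 UMIs (right), coloured by group. WD tumour 2 is lowest in each panel at 0.863%, 1.59% and 0.517%, and RD no tumour 1 is the lowest reversed mouse in each panel and lies below WD tumour 1 after thinning.

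With edgeR (all 6 mice, count filter, no block), no gene passed the threshold between WD tumour and RD no tumour mice in periportal nuclei. Some of the individual differences were still several-fold with no overlap between groups. Of 12424 genes tested with edgeR's quasi-likelihood test on the summed counts, 0 (0%) had a Benjamini-Hochberg adjusted p under 0.05, and the smallest adjusted p was 0.203. At an unadjusted p under 0.05, 302 genes (2.43%) were higher and 312 (2.51%) lower in WD tumour mice. With no difference between groups, a share of about 0.05 of genes, both directions together, would reach that p, and these counts lie near it. DESeq2 on the same sums called 20 genes higher and 22 lower. Leaving out RD no tumour 1 gave 1 higher and 3 lower call with edgeR, and leaving out RD no tumour 1 and WD tumour 2 together gave 3 and 7. With those 2 libraries as a block, an alternative chosen after seeing the data, 5 genes were called higher and 6 lower, among them Slco1a1 (adjusted p = 0.0163), Airn (0.0259) and Srebf1 (0.0343), which are described below. That pair was picked from these same counts, so calls with it blocked or left out describe the fits and are no independent support. The levels of all 3 WD tumour mice lay above all 3 RD no tumour mice for 502 genes (4.04%) and below them for 860 (6.92%). With no difference, 3 against 3 mice would separate in either direction for a share of about 0.1 of genes, and these shares together lie near it. The genes named next have the smallest p among non-overlapping genes. They did not pass with edgeR on all 6 mice, with the count filter and no block, while some passed in the alternatives.

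The lowest p belonged to Slco1a1, an organic anion transporter of the hepatocyte surface that is male-biased in mouse liver. Its level was 588, 487 and 555 CPM in RD no tumour livers, 128, 133 and 95.6 CPM in WD tumour livers and 135 CPM in the RD tumour liver. The WD tumour mice were all far below the tumour-free reversed mice, and the RD tumour mouse lay with them. The log2 fold change was -2.15 ± 0.24 (SE, adjusted p = 0.203), with DESeq2 giving an adjusted p of 8.24e-11 and a range over all alternatives of 8.24e-11 to 0.963. In nuclei of other cell types the same gene was at 130.4, 111 and 335 CPM in RD no tumour livers, 112, 103 and 70.2 CPM in WD tumour livers and 107 CPM in the RD tumour liver, where the groups lay closer together. The gene lies on chromosome 6 (chr6:141907282-141946962, minus strand, GRCm38). Its 250 bases before the RefSeq start hold matches to the TATA letters (capitals) and none to the C/EBP, STAT or TCF letters above.
Slco1a1, chr6:141946963-141947212, minus strand: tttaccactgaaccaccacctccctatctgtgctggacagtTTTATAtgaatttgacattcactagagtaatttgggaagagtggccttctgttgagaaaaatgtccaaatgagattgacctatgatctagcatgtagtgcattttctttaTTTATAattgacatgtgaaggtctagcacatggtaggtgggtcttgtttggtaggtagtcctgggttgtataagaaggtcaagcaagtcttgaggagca

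Next by p among the genes of lower level in WD tumour mice were the 9 that follow. Cyp2d9, a male-biased P450 with close paralogs whose reads may be shared, was at 275, 266 and 193 CPM in RD no tumour livers, 83.3, 56.2 and 42.8 CPM in WD tumour livers and 126 CPM in the RD tumour liver (log2 fold change -1.96 ± 0.31, adjusted p = 0.316). Cyp7b1, the oxysterol 7-alpha-hydroxylase, was at 716, 708 and 1264 CPM in RD no tumour livers, 189, 382 and 291 CPM in WD tumour livers and 656 CPM in the RD tumour liver (-1.60 ± 0.36, adjusted p = 0.670). Serpina3k, a secreted serpin with close paralogs, was at 1126, 878 and 1388 CPM in RD no tumour livers, 457, 399 and 377 CPM in WD tumour livers and 596 CPM in the RD tumour liver (-1.41 ± 0.27). All 3 separated the WD tumour mice from both reversed groups. Gadd45g, a stress-induced growth regulator, was at 226, 255 and 258 CPM in RD no tumour livers, 118, 94.7 and 87.8 CPM in WD tumour livers and 216 CPM in the RD tumour liver, so here the RD tumour mouse lay near the tumour-free mice. Mastl, a mitotic kinase, was at 113, 106 and 114 CPM in RD no tumour livers, 59.1, 44.4 and 51.2 CPM in WD tumour livers and 74.2 CPM in the RD tumour liver. Ugdh, which makes UDP-glucuronic acid for conjugation, was at 166, 163 and 147 CPM in RD no tumour livers, 73.5, 94.7 and 78.5 CPM in WD tumour livers and 185 CPM in the RD tumour liver. Gadd45g, Mastl and Ugdh had small spreads within groups and log2 fold changes of -1.24, -1.04 and -0.92.

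Hdc, which makes histamine from histidine, was at 68.1, 36.2 and 39.3 CPM in RD no tumour livers, 12.1, 20.7 and 12.6 CPM in WD tumour livers and 17.7 CPM in the RD tumour liver. Eif4ebp3, an inhibitor of cap-dependent translation, was at 101, 85.5 and 189.7 CPM in RD no tumour livers, 35.6, 14.8 and 41.7 CPM in WD tumour livers and 32.1 CPM in the RD tumour liver. Pcdh11x, a protocadherin, was at 44.7, 78.4 and 145 CPM in RD no tumour livers, 5.3, 0 and 16.8 CPM in WD tumour livers and 18.7 CPM in the RD tumour liver, and its 0 in WD tumour 2 allows up to 8.88 CPM. In these 3 genes the RD tumour mouse was below every tumour-free mouse, and their log2 fold changes were -1.75, -1.86 and -3.08. DESeq2 called all 3, as it did Slco1a1, Cyp2d9, Cyp7b1, Serpina3k, Gadd45g and Mastl, but not Ugdh.

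On the higher side Srebf1 had the lowest p. Srebf1, whose protein SREBP-1c turns on fatty acid synthesis, was at 21.7, 19.7 and 18.8 CPM in RD no tumour livers, 84.8, 50.3 and 73.7 CPM in WD tumour livers and 11 CPM in the RD tumour liver. Every WD tumour mouse lay above every reversed mouse (log2 fold change 1.88 ± 0.23, adjusted p = 0.203, 7.07e-06 with DESeq2, 7.07e-06 to 0.963 over all alternatives). Pparg, the nuclear receptor that promotes fat storage, was at 12.8, 8.23 and 14.5 CPM in RD no tumour livers, 66.6, 74 and 33.9 CPM in WD tumour livers and 13.2 CPM in the RD tumour liver (2.28 ± 0.37, adjusted p = 0.316). In both genes the RD tumour mouse lay with the tumour-free mice or below them. In nuclei of other cell types Pparg was at 265, 134 and 144 CPM in RD no tumour livers, 102, 687 and 92.2 CPM in WD tumour livers and 96.8 CPM in the RD tumour liver, highest in WD tumour 2, and the part of their RNA in the difference was not tested. Srebf1 lies on chromosome 11 (chr11:60199089-60222581, minus strand) and Pparg on chromosome 6 (chr6:115360951-115490399, plus strand).

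Airn, a long noncoding RNA antisense to Igf2r on chromosome 17, was at 49.7, 25.6 and 40.2 CPM in RD no tumour livers, 116, 198 and 165 CPM in WD tumour livers and 44.3 CPM in the RD tumour liver (2.09 ± 0.32, adjusted p = 0.316). In nuclei of other cell types, it stood at 186, 91.4 and 206 CPM in RD no tumour livers, 256, 543 and 361 CPM in WD tumour livers and 175 CPM in the RD tumour liver. Because it overlaps Igf2r, and how strand was handled in counting is not given in the sources used here, its value is uncertain. Hsd3b3, a steroid dehydrogenase with close paralogs, was at 12, 37.3 and 60.8 CPM in RD no tumour livers, 165, 139 and 145 CPM in WD tumour livers and 18.4 CPM in the RD tumour liver (2.08 ± 0.49). Idh2, the mitochondrial isocitrate dehydrogenase, was at 28.1, 25.3 and 34.2 CPM in RD no tumour livers, 56.8, 41.4 and 77 CPM in WD tumour livers and 38 CPM in the RD tumour liver. Lrp4, a membrane receptor, was at 22, 43.1 and 30.4 CPM in RD no tumour livers, 77.2, 53.3 and 83.3 CPM in WD tumour livers and 34.5 CPM in the RD tumour liver. Both differed by about the same amount (1.10 and 1.24). Sh2d4a (37.2, 24.9 and 31.7 CPM in RD no tumour livers against 69.7, 53.3 and 78.8 CPM in WD tumour livers), Dock6 (15.3, 9.31 and 9.77 CPM in RD no tumour livers against 25, 29.6 and 36.3 CPM in WD tumour livers) and Adrb3, a beta-adrenergic receptor (16.4, 12.1 and 14.1 CPM in RD no tumour livers against 29.5, 35.5 and 26.4 CPM in WD tumour livers) were also among the higher genes of smallest p. DESeq2 called Srebf1, Pparg, Airn and Hsd3b3 of these.

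**Figure D3:**
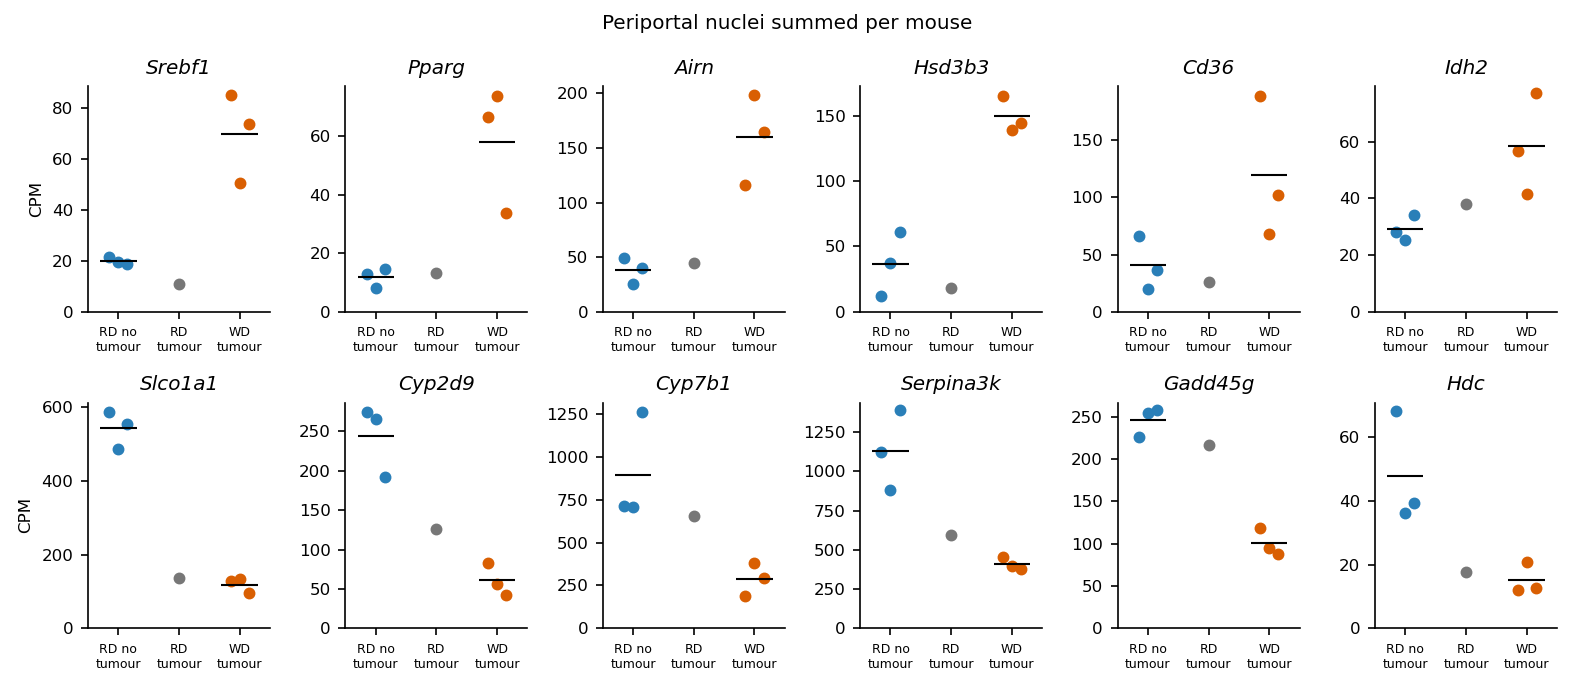
Each panel gives the CPM (linear axis from 0) of 1 gene in the summed periportal nuclei of every mouse, a point per mouse, with black lines at the means of the groups of 3. In the upper row the WD tumour mice are higher and in the lower row lower, without overlap with the RD no tumour mice, and none passed the adjusted threshold. The RD tumour mouse sits with the tumour-free mice for Srebf1 and Pparg and with the WD tumour mice for Slco1a1 (135 CPM) and Hdc.

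By gene lists, de novo lipogenesis had more of its genes on the WD tumour side than the larger of the other lists. In it 16 of 19 tested genes were higher and 3 lower on average in WD tumour mice, the median log2 fold change was 0.53, and over all 12424 genes 5910 were higher and 6514 lower with a median of -0.02. No member passed the adjusted threshold with edgeR, while 4 were higher and 0 lower at an unadjusted p under 0.05 (2.43% and 2.51% of all genes). Beside Srebf1, Pnpla3, a lipid droplet protein and SREBP-1c target, was at 1.11, 0.650 and 0.181 CPM in RD no tumour livers, 9.84, 8.88 and 6.89 CPM in WD tumour livers and 1.67 CPM in the RD tumour liver (log2 fold change 3.74 ± 0.61, adjusted p = 0.316). Pnpla3, counted among the 16, could pass the count filter through the WD tumour group, where it is high. Its 8.88 CPM in WD tumour 2 is 3 UMIs, the amount that a count of 0 allows there. Fads2, the delta-6 desaturase, was at 94.5, 202 and 80.9 CPM in RD no tumour livers, 370.3, 178 and 313 CPM in WD tumour livers and 251 CPM in the RD tumour liver (1.25 ± 0.41). Elovl6, which lengthens palmitate, differed by 0.83 ± 0.30 and Scd1, the stearoyl-CoA desaturase, by 1.19 ± 0.61. Fasn, the fatty acid synthase itself, differed by 0.02 ± 0.29 and Me1, the malic enzyme, by -0.66 ± 0.48, so the list did not move as a block. Lpin1, a phosphatidate phosphatase, was at 427, 975 and 1351 CPM in RD no tumour livers against 1107, 402 and 819.5 CPM in WD tumour livers.

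Sterol synthesis and uptake had the opposite balance, since 6 of 23 tested genes were higher and 17 lower on average in WD tumour mice (median -0.18). Cyp51, the lanosterol demethylase, was at 78.6, 81.9 and 73.3 CPM in RD no tumour livers against 18.2, 56.2 and 46.7 CPM in WD tumour livers (-0.97 ± 0.36) and Idi1 at 74.5, 76.2 and 55.6 CPM in RD no tumour livers against 13.6, 35.5 and 53.6 CPM in WD tumour livers (-0.93 ± 0.42). Sqle, the squalene epoxidase, differed by -1.05 ± 0.61, with the spread of the WD tumour mice (6.82, 65.1 and 35.7 CPM) reaching into the reversed range. The medians of the lipogenesis and sterol lists thus had opposite signs, and no sterol gene passed the threshold. In the bile acid list 7 of 18 tested genes were higher and 11 lower on average in WD tumour mice (median -0.14), with Slco1a1 and Cyp7b1 the lowest and Nr0b2, the bile acid-induced corepressor SHP, at 13.9, 11.3 and 69.3 CPM in RD no tumour livers against 52.3, 35.5 and 110.0 CPM in WD tumour livers. That list's median turned to 0.07 without RD no tumour 1 and WD tumour 2.

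Male-biased liver genes, which follow the pattern of growth hormone secretion, were slightly more often on the lower side. In that list 6 of 17 tested genes were higher and 11 lower on average in WD tumour mice (median -0.22, and -0.09 without RD no tumour 1 and WD tumour 2). At an unadjusted p under 0.05, 4 were lower and 0 higher (2.51% and 2.43% of all genes). Besides Slco1a1 and Cyp2d9 these were Cyp7b1 and Mup3, a major urinary protein with near-identical copies, at 345, 3565 and 2427 CPM in RD no tumour livers, 699.7, 234 and 392 CPM in WD tumour livers and 1064 CPM in the RD tumour liver (-2.20 ± 0.78). Elovl3, a male-biased elongase, differed by -3.09 ± 1.52 with RD no tumour 1 at 0.834 CPM, below 2 of the WD tumour mice, and by -0.70 without RD no tumour 2. Ghr, the growth hormone receptor, was near even at 0.07 ± 0.40. Of 10 female-biased genes only 4 were abundant enough to test. A gene could pass that filter through the group where it was high, so the list is given no count or median. Cyp2b9, a female-biased P450 with close paralogs, was at 0, 6.28 and 13.2 CPM in RD no tumour livers, 69.7, 38.5 and 251 CPM in WD tumour livers and 17.7 CPM in the RD tumour liver. WD tumour 3 was far the highest, and without it the log2 fold change of Cyp2b9 went from 4.25 to 3.13. The adjusted p was 0.674 for Cyp2b9.

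The acute phase list, of proteins the liver secretes in inflammation, had 5 genes higher and 19 lower on average in WD tumour mice of 24 tested (median -0.69), but 1 tumour-free mouse set the largest of these values. Saa1, serum amyloid A, was at 7346, 266 and 876 CPM in RD no tumour livers, 84.8, 547 and 56.6 CPM in WD tumour livers and 249.8 CPM in the RD tumour liver, and Saa2, its near-identical copy with which it may share reads, at 7241, 91.6 and 487 CPM in RD no tumour livers, 34.1, 325 and 26.7 CPM in WD tumour livers and 138 CPM in the RD tumour liver. RD no tumour 1 exceeded all other mice in both. Haptoglobin (Hp) showed the same mouse on top, at 7781, 2136 and 3107 CPM in RD no tumour livers, 1419, 2042 and 1548 CPM in WD tumour livers and 1748 CPM in the RD tumour liver. The fold changes were -3.62 ± 1.37 for Saa1 and -1.33 ± 0.53 for Hp, with adjusted p = 0.951 and 0.986. Without RD no tumour 1, the fold change of Saa1 was -1.32 and that of Saa2 went from -4.39 to -1.27. Saa3, the form of macrophages and inflamed tissue, changed sign when RD no tumour 1 was left out, from -2.38 to 0.017 (adjusted p 0.259 to 1.000 over all alternatives). The list's median was -0.66 without RD no tumour 1 and WD tumour 2.

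The defining periportal pathways showed no common direction. Genes of higher mean in WD tumour mice were 8 of 14 with a median of 0.11 for the urea cycle, 7 of 15 with a median of -0.02 for histidine, serine and glycine breakdown, 7 of 17 with a median of -0.10 for gluconeogenesis and 11 of 20 with a median of 0.08 for other periportal genes. Genes of the rule were not taken out of these lists. The 15 include Hal (-0.68) and Sds (0.54), the lowest and highest of that list, whose differences describe how members were chosen. Cps1 was at 5124, 4575 and 5172 CPM in RD no tumour livers against 5878, 3444 and 5829 CPM in WD tumour livers and differed by 0.07 ± 0.38. Ass1 differed by 0.67 ± 0.38 and Asl by -0.45 ± 0.26. Pck1 was at 2029, 1924 and 2576 CPM in RD no tumour livers against 2020.5, 2012 and 2056 CPM in WD tumour livers, all 6 within a narrow range. Alb was at 3897, 13067 and 11940.0 CPM in RD no tumour livers against 8237, 8799 and 10289 CPM in WD tumour livers, with its lowest value in RD no tumour 1. Hsd17b6 was an exception in size, at 35.3, 4.76 and 17.6 CPM in RD no tumour livers, 68.2, 145 and 71.9 CPM in WD tumour livers and 19.9 CPM in the RD tumour liver (2.30 ± 0.65, adjusted p = 0.762), and DESeq2 called it at 0.0496 (0.0496 to 1.000 over all alternatives). Apoa4, an apolipoprotein, was at 84.8, 79.7 and 267 CPM in RD no tumour livers against 287, 364 and 307 CPM in WD tumour livers. Bmper, among the most periportal genes above, was at 971, 211 and 212 CPM in RD no tumour livers against 49.2, 216 and 37.5 CPM in WD tumour livers, where RD no tumour 1 alone stood at 971 CPM.

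Of the pericentral genes, those of higher mean were 13 of 23 with a median of 0.14. Rnf43, a Wnt feedback gene, was at 74.8, 55.4 and 58.3 CPM in RD no tumour livers against 91.6, 121 and 106 CPM in WD tumour livers (0.79 ± 0.21, adjusted p = 0.716), and the bile acid importer Slco1b2 at 1042, 1263 and 1474 CPM in RD no tumour livers against 2079.5, 769 and 1583 CPM in WD tumour livers. For fatty acid oxidation the count was 10 of 24 with a median of -0.07. Cd36, a fatty acid transporter and PPAR target, was at 66.1, 19.5 and 36.7 CPM in RD no tumour livers, 189, 68.1 and 102 CPM in WD tumour livers and 25.8 CPM in the RD tumour liver (1.63 ± 0.50). In glycolysis and fructose use the count was 10 of 14 with a median of 0.17. Gpi1, the glucose phosphate isomerase, was at 38.4, 32.3 and 28.4 CPM in RD no tumour livers against 44.7, 65.1 and 51.8 CPM in WD tumour livers. Among other amino acid genes (14 of 24 with a median of 0.04), Tat, the tyrosine aminotransferase, was at 1501, 1923 and 1343 CPM in RD no tumour livers against 1081, 704 and 1109 CPM in WD tumour livers and Mat1a, which makes S-adenosylmethionine, at 5301, 4490.4 and 3690.3 CPM in RD no tumour livers against 3368, 2772 and 3089 CPM in WD tumour livers. Lipid droplet genes gave 6 of 16 with a median of -0.07, and G0s2, which inhibits the lipase ATGL, ranged from 53.9 to 972 CPM with a sign that depended on RD no tumour 2 (log2 fold change -0.79 with it and 1.71 without).

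Lists of tumour and stress genes had medians near 0 with all 6 mice and no block. Fetal and liver tumour markers had 5 of 11 with a median of -0.10, and 11 of 23 were abundant enough to test. Afp, alpha-fetoprotein, was at 38.1, 11.7 and 41.8 CPM in RD no tumour livers, 14.4, 38.5 and 10.49 CPM in WD tumour livers and 11 CPM in the RD tumour liver, and Spp1, osteopontin, at 92, 7.36 and 7.96 CPM in RD no tumour livers, 29.5, 41.4 and 29.7 CPM in WD tumour livers and 12 CPM in the RD tumour liver, with overlapping groups in both. Oxidative stress genes had 9 of 18 with a median of -0.01, where the metallothionein Mt1 was at 1712, 1989.7 and 1793 CPM in RD no tumour livers against 964, 1284 and 808 CPM in WD tumour livers (-0.79 ± 0.30) without overlap. Unfolded protein response genes had 9 of 18 with a median of -0.04. Some of these medians moved with RD no tumour 1 and WD tumour 2. Without both, unfolded protein response genes had 13 of 17 higher with a median of 0.13, and histidine, serine and glycine breakdown had a median of -0.14. Fetal and tumour markers had a median of 0.19 with the pair as a block and -0.22 without it, and the pericentral list went to -0.01 with the block. Asns, asparagine synthetase, was at 5.0, 5.41 and 10.1 CPM in RD no tumour livers, 0, 0 and 1.2 CPM in WD tumour livers and 4.79 CPM in the RD tumour liver, and its zeros allow up to 2.27 CPM in WD tumour 1 and 8.88 CPM in WD tumour 2. Scaling by library size alone shifted the median of all genes from -0.02 to 0.04 and gave 390 higher and 233 lower genes at an unadjusted p under 0.05. Under it the medians of histidine, serine and glycine breakdown and of oxidative and unfolded protein stress turned positive, at 0.03, 0.05 and 0.03.

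Markers of other cell types were present in the sums of every mouse. The summed level of 10 cholangiocyte markers was 419.5 to 755 CPM in WD tumour livers, against 255 to 494 CPM in the tumour-free ones. In nuclei of other cell types it was 290.1 to 899.6 CPM, and the members were above those nuclei in 4 of 7 mice. Onecut2 made up most of the members' sum, at 197 to 449.7 CPM, while the cholangiocyte keratins Krt19 and Krt7 stood at 0 to 2.96 CPM. Bicc1 among them was at 12.8, 8.45 and 14.8 CPM in RD no tumour livers, 18.9, 127 and 29.1 CPM in WD tumour livers and 21.3 CPM in the RD tumour liver, highest in WD tumour 2. Kupffer cell and macrophage markers summed to 134 to 319 CPM in WD tumour livers, against 101 to 320.1 CPM in the tumour-free ones (602 to 1975 CPM in nuclei of other cell types). Stellate cell and fibroblast markers summed to 77.9 to 134 CPM in WD tumour livers, against 47.3 to 113 CPM in the tumour-free ones (725 to 1447 CPM in nuclei of other cell types). For all lists but the cholangiocyte one, members were below the nuclei of other cell types in all 7 mice. The ranges of the groups overlapped for each of these lists, as they did for endothelial markers (51 to 89.2 CPM in WD tumour livers, against 68.3 to 84.7 CPM in the tumour-free ones) and lymphocyte markers (26.9 to 34.8 CPM in WD tumour livers, against 12.9 to 35.2 CPM in the tumour-free ones). No marker of the 5 lists was at 0 in all mice. Their part in the differences above was not tested.

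**Figure D4:**
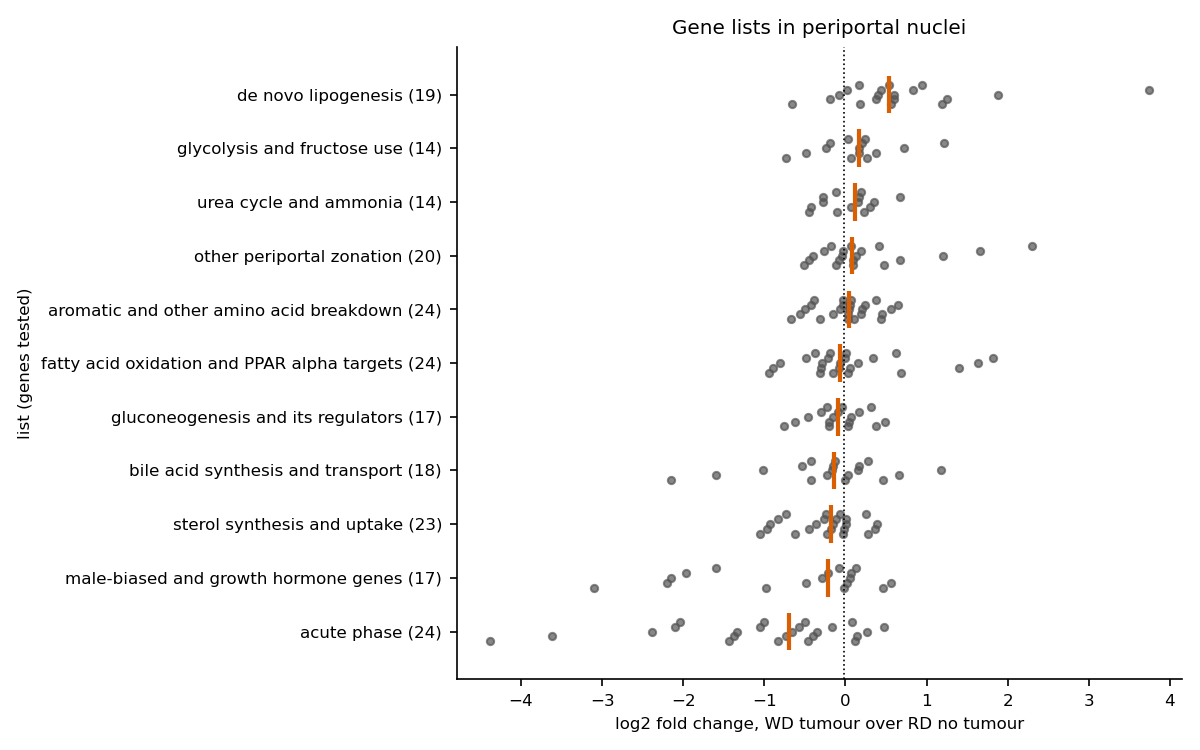
Each grey point is the log2 fold change (horizontal axis, WD tumour over RD no tumour) of 1 tested gene in periportal nuclei, grouped by list (vertical axis, with the number tested), and orange bars mark list medians. The lipogenesis list (median 0.53) lies mostly right of 0 and the acute phase list (-0.69) mostly left, while urea cycle and periportal lists straddle it.

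The difference between WD tumour and RD no tumour mice itself differed between the periportal and pericentral nuclei of the same livers for a few genes. In a model with the mouse as a block, 11844 genes were tested, and the interaction of zone and group passed an adjusted p of 0.05 for 6 genes (0.0507%) more in the periportal direction and 3 (0.0253%) in the other. DESeq2 called 9 and 3. None of the rule's genes was called. Counts depended on single mice. Without RD no tumour 1 there were 23 and 21 calls, and 11 and 11 without RD no tumour 2. They were 4 and 1 without RD no tumour 3, 5 and 1 without WD tumour 1, 14 and 7 without WD tumour 2, and 2 and 0 without WD tumour 3.

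Of the genes whose difference was more negative in periportal nuclei, Slco1a1 had the lowest p. In pericentral nuclei it was at 228, 369 and 401 CPM in RD no tumour livers, 216, 257 and 208 CPM in WD tumour livers and 78.2 CPM in the RD tumour liver, so the gap between groups seen in periportal nuclei (588, 487 and 555 CPM in RD no tumour livers against 128, 133 and 95.6 CPM in WD tumour livers) was much smaller there. The log2 fold change was -2.15 ± 0.24 in periportal and -0.50 ± 0.26 in pericentral nuclei, and their difference was -1.67 ± 0.24 (adjusted p = 0.00962). With TMM factors set separately for each zone, the gene was higher in periportal than in pericentral nuclei of the tumour-free mice, and in all 3 WD tumour mice it was lower. The call was lost without WD tumour 1 (-1.79, adjusted p = 0.0504) and without WD tumour 3 (-1.54, adjusted p = 0.206), over a range of 2.24e-16 to 0.206 for all alternatives.

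Pygl, the liver glycogen phosphorylase, crossed over between zones in the same way. In periportal nuclei it was at 132, 299.96 and 219 CPM in RD no tumour livers, 219, 159.8 and 151 CPM in WD tumour livers and 251 CPM in the RD tumour liver. In pericentral nuclei it was at 82.6, 173 and 118 CPM in RD no tumour livers, 289, 195 and 167 CPM in WD tumour livers and 219 CPM in the RD tumour liver. With TMM factors set separately for each zone, periportal levels exceeded pericentral ones in every reversed mouse and were below them in every WD tumour mouse (difference -1.06 ± 0.16, adjusted p = 0.0127). The gap was narrow in WD tumour 3 (151 against 167 CPM) and in the RD tumour mouse (251 against 219 CPM). The call was lost with thinned nuclei (-1.05, adjusted p = 0.238) and without RD no tumour 3, WD tumour 1 or WD tumour 3 (0.0833, 0.135 and 0.112 as adjusted p), with a range over the alternatives of 5.86e-06 to 0.238. Trhde, a peptide-degrading enzyme, was called at -2.22 ± 0.37 (adjusted p = 0.0331) but was low and uneven. Its periportal level was 0.556, 15.4 and 77.8 CPM in RD no tumour livers against 10.6, 0 and 18 CPM in WD tumour livers, and its pericentral level 0.677, 10.7 and 26.9 CPM in RD no tumour livers against 18.8, 1.03 and 37.9 CPM in WD tumour livers. DESeq2 gave it no adjusted p. Its call was lost without RD no tumour 3 (-1.49), WD tumour 1 (-2.30) or WD tumour 3 (-2.04), with adjusted p from 8.15e-07 to 0.943 over the alternatives.

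Pparg showed the reverse. In pericentral nuclei it was at 86.7, 81.2 and 136 CPM in RD no tumour livers, 110.3, 188 and 102 CPM in WD tumour livers and 103 CPM in the RD tumour liver, with little separation of the groups, whereas the periportal level was 12.8, 8.23 and 14.5 CPM in RD no tumour livers against 66.6, 74 and 33.9 CPM in WD tumour livers. The difference between the zones' fold changes was 1.90 ± 0.25 (adjusted p = 0.00661). Pparg was pericentral in all 7 mice, and the ratio between the zones was narrower in the WD tumour mice. The call was lost with thinned nuclei (adjusted p = 0.0907, with 6.72e-13 to 0.0907 over the alternatives). Aldh3a2, a fatty aldehyde dehydrogenase, also had a narrower ratio between the zones in the WD tumour mice. Unlike Pparg, it did not separate the groups in periportal nuclei, where WD tumour 2 lay within the RD no tumour range. Its periportal level was 16.1, 50.9 and 30.6 CPM in RD no tumour livers, 192, 38.5 and 133 CPM in WD tumour livers and 43.8 CPM in the RD tumour liver. Its pericentral level was 125, 316 and 326 CPM in RD no tumour livers, 375, 142 and 266 CPM in WD tumour livers and 316 CPM in the RD tumour liver (difference 1.91 ± 0.22, adjusted p = 0.00563). Its call was lost without WD tumour 3 (1.83, adjusted p = 0.112, with 4.86e-18 to 0.112 over the alternatives). Both genes were also lower in the top part of the members by marker share, in 7 of 7 mice.

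Osbpl3, an oxysterol-binding protein relative, was in periportal nuclei at 5.56, 16.9 and 17.4 CPM in RD no tumour livers against 151, 23.7 and 47.9 CPM in WD tumour livers. In pericentral nuclei it was at 6.1, 41.3 and 43.4 CPM in RD no tumour livers against 100.4, 12.4 and 21.1 CPM in WD tumour livers (difference 1.99 ± 0.27, adjusted p = 0.00661). WD tumour 1 was the highest mouse in both zones. The call was lost with thinned nuclei (adjusted p = 0.0745) and without RD no tumour 3 (0.0753) or WD tumour 3 (0.112), with a range over the alternatives of 1.16e-10 to 0.112. Slc22a27, an anion transporter in a cluster of similar genes, was in periportal nuclei at 3.89, 1.73 and 9.59 CPM in RD no tumour livers against 25, 8.88 and 73.7 CPM in WD tumour livers. The 8.88 CPM in WD tumour 2 is 3 UMIs, the amount that a count of 0 allows there. Its pericentral level was 81.3, 19.5 and 211 CPM in RD no tumour livers against 152, 123 and 239 CPM in WD tumour livers (2.17 ± 0.33, adjusted p = 0.0161). Its call was lost with DESeq2 (adjusted p = 0.102) and without RD no tumour 3 (1.95, 0.320) or WD tumour 3 (1.51, 0.625), with a range over the alternatives of 8.98e-13 to 0.625.

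Setbp1, a nuclear DNA-binding protein, did not separate the groups in periportal nuclei (50.3, 22.5 and 76.2 CPM in RD no tumour livers against 76.5, 62.1 and 50.3 CPM in WD tumour livers) but was lower in pericentral nuclei of 2 WD tumour mice than of any RD no tumour mouse (55.5, 34.8 and 112 CPM in RD no tumour livers against 39.5, 34.1 and 29.9 CPM in WD tumour livers). The difference was 1.31 ± 0.21 (adjusted p = 0.0259). It was 0.82 with thinned nuclei (adjusted p = 0.970), and the call was also lost without called doublets (0.0614) and without RD no tumour 3 (0.185), WD tumour 1 (0.218) or WD tumour 3 (0.206), with a range over the alternatives of 2.72e-05 to 0.970. Gm49959, a predicted RNA inside the Airn span on the opposite strand, was called at 2.82 ± 0.38 (adjusted p = 0.00661). Its periportal level was 5.56, 1.08 and 1.99 CPM in RD no tumour livers against 9.09, 62.1 and 15.3 CPM in WD tumour livers, and its pericentral level 137, 42.2 and 180.4 CPM in RD no tumour livers against 42.2, 423 and 102 CPM in WD tumour livers. Its call was lost with thinned nuclei (adjusted p = 0.246) and without WD tumour 3 (0.112), with a range over the alternatives of 3.94e-15 to 0.246. Just short of the threshold were Cyp7b1 at -1.09 ± 0.20 (adjusted p = 0.0658), the glutamate transporter Slc17a8 at -1.43 ± 0.26 (adjusted p = 0.0675) and Airn at 1.62 ± 0.30 (adjusted p = 0.0675).

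**Figure D5:**
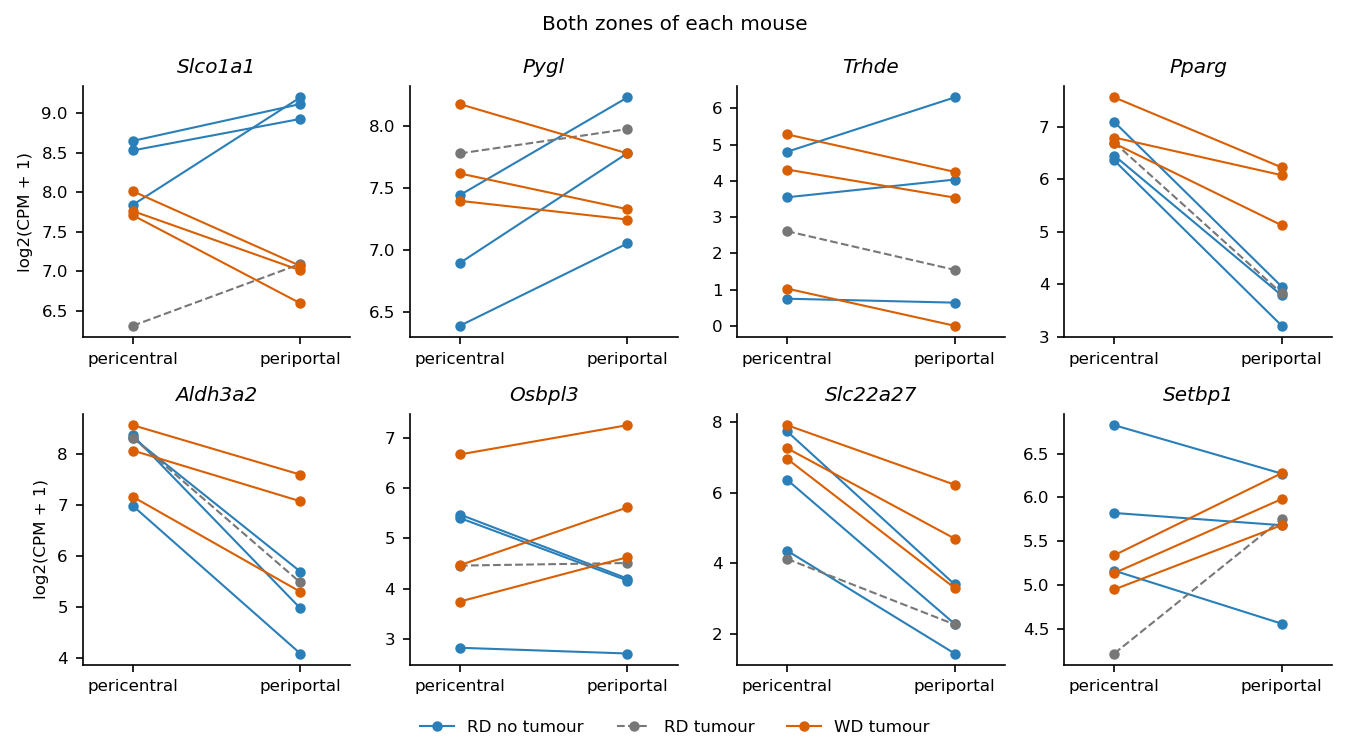
Each panel gives log2(CPM + 1) of 1 gene in the pericentral (left) and periportal (right) nuclei of every mouse, with a line joining the zones of 1 mouse and colour for the group. TMM factors were set separately for each zone. For Slco1a1 and Pygl the RD no tumour lines go up and the WD tumour lines go down, and for Pparg and Aldh3a2 all lines go down, less steeply in WD tumour mice (differences of -1.67, -1.06, 1.90 and 1.91).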

How the data were processed

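Single-nucleus 3′ libraries (10x v3.1) were made from snap-frozen liver, per the labels' protocols. The authors deposited raw UMI counts per gene and barcode for each mouse, made with Cell Ranger 7.0.0 on mm10, per the submitters' processing notes. Whether introns were counted is not given in the sources used here. The files list 32285 genes, of which 32158 have a position in the annotation used (GENCODE M21, GRCm38), and 38 symbols are duplicated.

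Members were found by the rule given above, and their counts were summed per mouse. Members, gene lists and tests were chosen with earlier results of these data known. WD tumour (3 mice) was compared with RD no tumour (3 mice) with edgeR 4.0.16 (R 4.3.3): TMM, filterByExpr, quasi-likelihood F test, Benjamini-Hochberg adjustment over all genes, threshold 0.05. The interaction used periportal and pericentral sums of the same 6 mice with the mouse as a block. Shares were tested on log2 values by exact permutation (scipy 1.17.1). Precision follows depth, with 1 UMI worth 0.181 to 2.96 CPM of a mouse's members.

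Doublets were scored with Scrublet (scanpy 1.11.5), calling the highest scores up to 0.8% per 1000 barcodes (2.03 to 11.1% of members). They were kept, and removed in an alternative. Other alternatives were DESeq2 1.42.0, no count filter, library size without TMM, no mitochondrial genes, a replicate block, RD tumour 2 as a group of its own, at least 5 marker UMIs or 500 genes, thinning to 1000 UMIs, at most 5% mitochondrial UMIs, stricter pericentral nuclei and each mouse left out. The pair of libraries that deviated together was blocked or left out as an alternative chosen after seeing the data. The fits were also run on simulated counts, with the same dispersion for every gene and no effect of the mouse. Those counts are simpler than the data, and the outcome is not reported here.

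Named genes were the rule's genes; the 10 non-overlapping genes of smallest p in each direction with a mean of at least 20 CPM; per list the highest level and the 3 largest changes; the 5 smallest interaction p in each direction; and the 10 largest zone differences, passing over predicted and Mup genes. Of these the text gives a part, and some are not reported here. Other genes (Uroc1, Ftcd, Fasn, Scd1, Nags and others of the lists) and Gm49959 were chosen after their values were seen.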

Additional observations from a re-analysis of the deposited data

Results flagged for a closer look

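The difference between WD tumour and RD no tumour mice differed between periportal and pericentral nuclei, by the interaction test, for 9 genes. In log2 units the periportal fold change exceeded the pericentral one by 2.82 for Gm49959, 2.17 for Slc22a27, 1.99 for Osbpl3, 1.91 for Aldh3a2, 1.90 for Pparg and 1.31 for Setbp1. The difference was -2.22 for Trhde, -1.67 for Slco1a1 and -1.06 for Pygl.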

How the results depend on the processing

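Between WD tumour and RD no tumour mice, the count of 0 higher and 0 lower genes became 20 and 22 with DESeq2, 8 and 8 without a count filter, 5 and 6 with the library pair as a block, and 3 and 7 without both libraries of the pair. One mouse left out gave 0 to 1 higher and 0 to 3 lower. The interaction counts of 6 and 3 became 58 and 56 without a filter, 25 and 18 without the pair, and 1 lower with thinned nuclei. They ranged from 2 to 23 and from 0 to 21 with one mouse left out. Genes on the periportal or pericentral side in every mouse (788 and 605) numbered 512 and 321 after thinning and 1309 and 929 without the pair. The share difference of -1.89 ranged from -2.57 to -0.918 with one mouse left out. With one mouse left out, Igfbp1 (-0.75) ranged from -1.82 to 0.24, Saa3 (-2.38) from -3.39 to 0.017 and G0s2 (-0.79) from -1.30 to 1.71, and G0s2 was 0.66 with the replicate block. The positive values of Igfbp1 and Saa3 came without RD no tumour 1, that of G0s2 without RD no tumour 2. The causes were not tested. Replicate numbers did not pair the mice (same-number correlations of -0.315, -0.297 and 0.147), and the replicate block left 0 higher and 0 lower genes, with 227 and 209 at an unadjusted p under 0.05. Of 20 named zone genes, none changed direction in 80 recomputed values. WD tumour 2, with 61 members, limits the depth of every comparison.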
